A study of Mus musculus with 10 samples.

Results

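Messenger RNA of 9 genes for angiogenic and tissue growth factors and their receptors was measured in sorted mouse retinal cells: the ligand genes Vegfa, Vegfb, Pdgfa, Pdgfb, Hbegf and Osm, the matrix glycoprotein gene Thbs1, and the receptor genes Nrp1 and Flt1. The genes were taken by symbol, and all 9 were found among the 21869 genes of the table. CD36-positive cells (5 libraries, numbered 1, 2, 3, 4 and 7 in their descriptions) were compared with CD36-negative cells (5 libraries, numbered 1, 2, 4, 7 and 8). Both were sorted from the retinas of mice labelled WT, as live cells with CD11b and intermediate CD45, a gate that the labels call microglia. The labels give neither the age of the mice nor how many mice made up a sample. The protocol of the series gave mice 20 mg/kg of sodium iodate, which damages the retinal pigment epithelium, or saline, with eyes taken 7 days later, but for the sorted samples the labels do not name the treatment. They also do not say that the samples of a group came from separate mice, so p-values measure the spread between these samples, part of which may be technical.

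VEGF-A is the main growth signal for blood vessels in the retina. It acts through the receptor tyrosine kinases VEGFR2, encoded by Kdr, and VEGFR1, encoded by Flt1, with neuropilin-1 as a co-receptor; Flt1 also yields a soluble form that binds VEGF-A, VEGF-B and placental growth factor without signalling. PDGF-B from endothelial cells holds pericytes on vessels, PDGF-A from retinal neurons spreads astrocytes, HB-EGF acts through the EGF receptor, oncostatin M is an IL-6 family cytokine of myeloid cells, and thrombospondin-1 is an inhibitor of angiogenesis that binds CD36, the protein used for this sort.

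Total expected counts ran from 5001692 to 13250984 in CD36-positive libraries and from 9361263 to 12138472 in CD36-negative libraries. All values below are CPM, expected counts scaled to a common library total with TMM factors, in which 3 counts correspond to 0.238 to 0.558 CPM in a library. Cd36 itself averaged 219 ± 39.9 CPM in the CD36-positive libraries, against 50.3 ± 5.51 CPM in the CD36-negative ones (SD, n = 5 each). The 10 microglia markers were all detected, did not pass the test below, and summed to 6770 to 15200 CPM in the CD36-positive and 6700 to 15200 CPM in the CD36-negative group. Lists of markers of other blood cells had many members that were lower in CD36-positive libraries: 13 of 14 tested dendritic cell markers (summed level 53.9 to 120 CPM in CD36-positive against 886 to 1500 in CD36-negative libraries), 8 of 11 monocyte markers (489 to 973 CPM in CD36-positive against 1320 to 2420 in CD36-negative libraries), 9 of 11 neutrophil markers (86 to 195 CPM in CD36-positive against 357 to 909 in CD36-negative libraries) and 5 of 6 T and NK cell markers (2.98 to 21.2 CPM in CD36-positive against 65.6 to 337 in CD36-negative libraries). The neutrophil markers Retnlg, Ly6g, G0s2 and Stfa2l1 and the NK cell marker Prf1 had 0 counts in the CD36-positive group, and every monocyte and dendritic cell marker was detected there. The monocyte markers Ccr2 (413 CPM in CD36-positive against 408 in CD36-negative libraries), Vcan (5.21 against 3.97) and Fn1 (241 against 333) did not pass. CD36-positive libraries 1 and 3 stood apart from the others on principal components 2 and 3. The summed level of 4 Y-linked genes divided the libraries into CD36-positive 1, 2 and 3 with CD36-negative 1 and 2 (184 to 324 CPM) and CD36-positive 4 and 7 with CD36-negative 4, 7 and 8 (18.4 to 57.6 CPM).

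In CD36-positive cells 1 of the 9 genes fell, the VEGF receptor gene Flt1, and 0 rose, at an adjusted p under 0.05 in edgeR's quasi-likelihood test over all 11596 genes tested. Among all genes tested, 7.36% passed that threshold, 4.74% lower and 2.61% higher. Of the 7 genes with enough counts to test, Pdgfb, Thbs1, Pdgfa, Osm, Vegfb and Nrp1 had estimates above 0 without passing. An unadjusted p under 0.05 was found for 4 of these (10.6% of all genes tested were higher at that level). The DESeq2 Wald test called 2 of them higher, Pdgfb and Nrp1, and limma voom called 0. The median log2 fold change of the 7 genes was 0.58, against 0.02 for all genes tested. The genes were chosen with earlier results of these data known, so these comparisons with all genes are not independent evidence. Vegfa and Hbegf were at the edge of detection and were not tested.

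**Figure D1:**
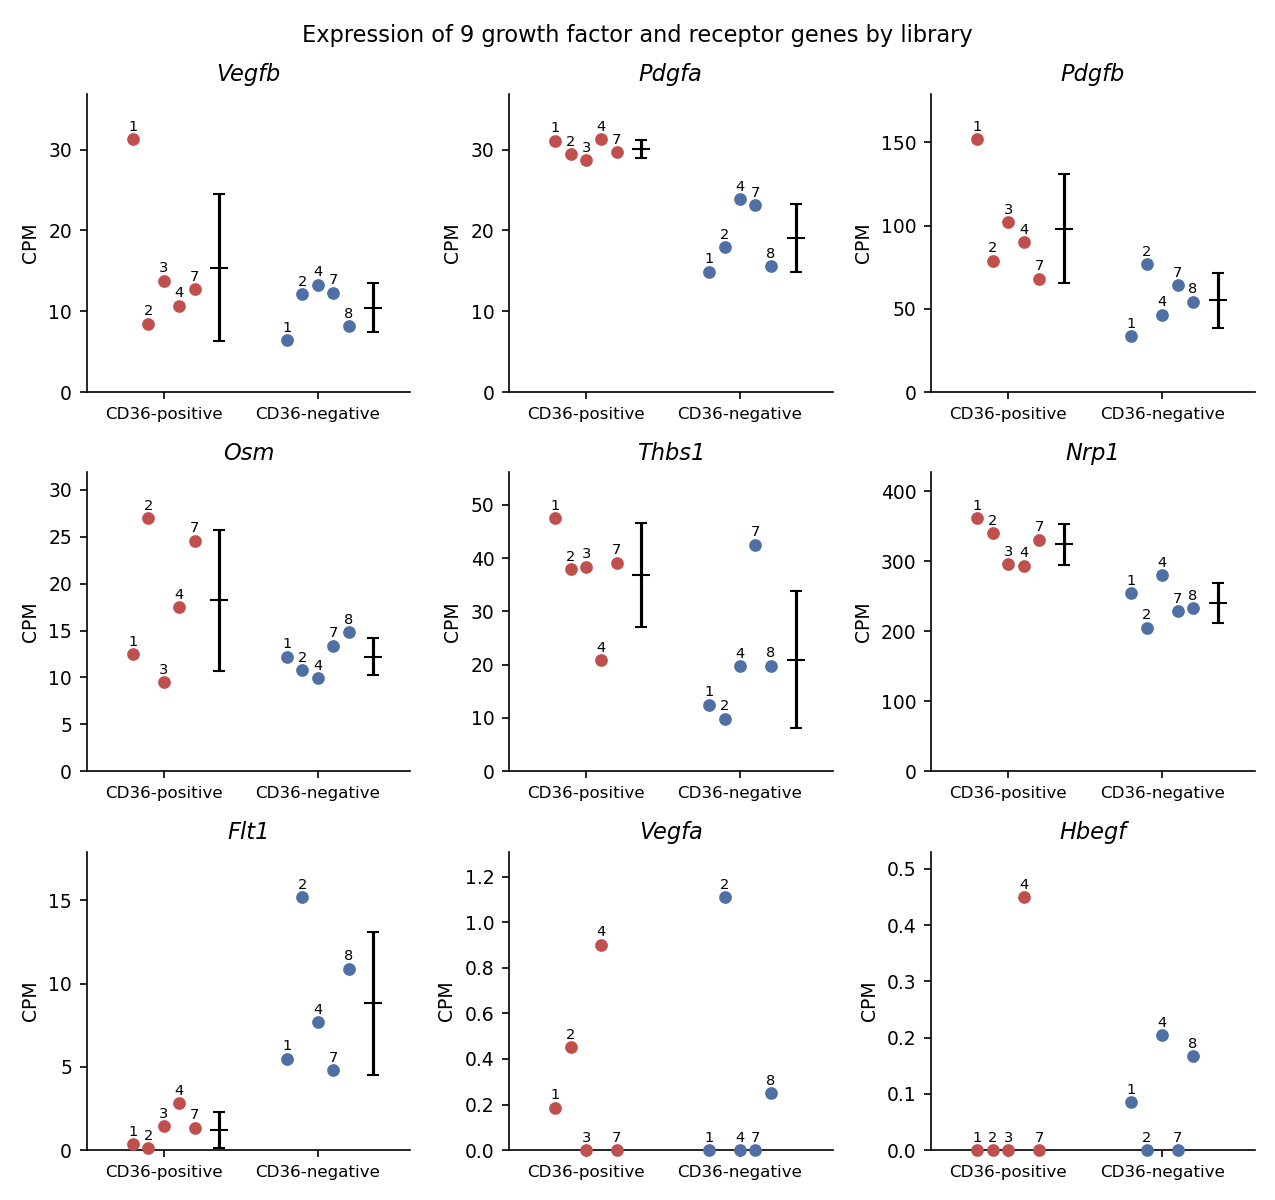
CPM of each gene (vertical axis, from 0, scaled per gene) in the 5 CD36-positive and the 5 CD36-negative libraries, with library numbers beside the points; bars are mean ± SD and are not drawn for Vegfa and Hbegf, which had 0 counts in several libraries. The groups do not overlap for Pdgfa, Nrp1 and Flt1.

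Flt1 encodes VEGFR1, a decoy for VEGF-A and a signalling receptor on monocytes and macrophages. It was at 0.372, 0.113, 1.43, 2.82 and 1.35 CPM in CD36-positive libraries 1, 2, 3, 4 and 7 (2, 1, 10, 25 and 17 counts). In CD36-negative libraries 1, 2, 4, 7 and 8 it was at 5.49, 15.2, 7.67, 4.8 and 10.9 CPM (64, 151, 75, 46 and 131 counts). Every CD36-positive library lay below every CD36-negative one, a separation seen in 8.42% of all genes tested, and in this direction in 5.83%. The log2 fold change was -2.83 (SE 0.72, 95% interval -4.34 to -1.31, edgeR adjusted p = 0.0222), and the fall was seen in 5 of 5 CD36-positive libraries. The call was lost without CD36-negative library 2 (-2.55, adjusted p = 0.0762), without CD36-negative library 8 (-2.74, adjusted p = 0.0585) and without both libraries that stood apart (-2.62, adjusted p = 0.0635). It was also lost with the replicate number of the descriptions as a block (-3.08, adjusted p = 0.0971). Within the libraries of high and of low Y-linked level the log2 fold change was -4.05 and -1.91, with edgeR adjusted p of 0.133 and 0.201. In a sorted pool, fewer cells of a type and less RNA per cell cannot be told apart.

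Kdr, the gene of the main signalling receptor VEGFR2, was chosen for comparison after its values were seen. It averaged 3.84 ± 2.32 CPM in the CD36-positive group and 7.41 ± 2.31 CPM in the CD36-negative group (SD, n = 5 each), with a log2 fold change of -0.93 (edgeR adjusted p = 0.359), and the groups overlapped. Whether Flt1 and Kdr differed in their change was not tested. Of the 5 tested genes of VEGF ligands and receptors, Flt1 fell and the others did not pass, with a median log2 fold change of -0.57. Of 14 endothelial markers other than Flt1, 4 had enough counts to test and 1 passed, Pecam1, the gene of the adhesion protein CD31 that leukocytes also carry (3.24 ± 1.85 CPM in CD36-positive against 12 ± 6.31 in CD36-negative cells, a log2 fold change of -1.88 with an edgeR adjusted p of 0.0379). It passed in 4 of 10 fits that left out 1 library. The endothelial markers summed to 22.5 to 40.8 CPM in the CD36-positive and 52.5 to 108 CPM in the CD36-negative group. The markers Eng, which macrophages also express, and Vwf, which platelets also store, did not pass. Eng made the largest part of the endothelial sum in both groups by mean CPM. It was at 21.3 ± 9.88 CPM in CD36-positive against 48.2 ± 24.6 in CD36-negative cells (log2 fold change -1.17, edgeR adjusted p = 0.0748). Vwf was at 1.8 ± 0.936 CPM in CD36-positive against 6.66 ± 3.92 in CD36-negative cells (-1.88, adjusted p = 0.0952). Other markers of endothelium had few counts in both groups and were not tested. In the CD36-positive and the CD36-negative group, the tight junction gene Cldn5 had 0 and 12 counts and the cadherin gene Cdh5 14 and 29. In the same order, Plvap had 3 and 12, Egfl7 12 and 22, Esam 26 and 29, Slco1a4 2 and 2, and Tie1 0 and 0. Ly6c1 (46 and 15), Tek (6 and 2) and Emcn (1 and 0) had more counts in the CD36-positive group. Flt1 was lower in the same libraries in which dendritic cell, monocyte, neutrophil, T and NK cell, and endothelial marker sums were lower. The part of these cell types in the Flt1 difference was not tested.

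**Figure D2:**
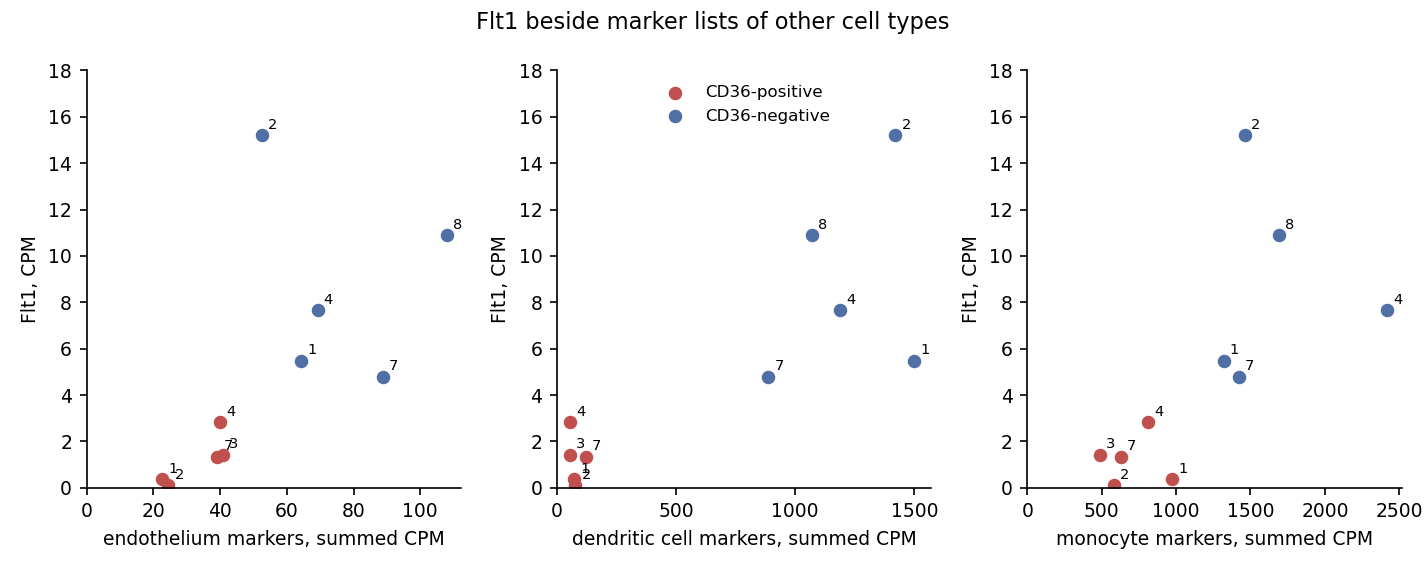
Flt1 (vertical axis, CPM) against the summed CPM of endothelial, dendritic cell and monocyte markers (horizontal axes), 1 point per library with its number, CD36-positive and CD36-negative libraries in separate colours. CD36-positive libraries have the lower Flt1 and the lower marker sums in each panel, and CD36-negative library 2, with the highest Flt1 of 15.2 CPM, has the lowest endothelial sum of its group, 52.5 CPM.

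The promoter of Flt1 is shown because it is the gene that passed, and those of Nrp1 and Pdgfa because their groups did not overlap. Each window runs from 250 bases before to 50 bases after a RefSeq start site on GRCm38.p6, 5′ to 3′ on the gene's own strand. The Nrp1 and Pdgfa windows lie wholly inside the genes as GENCODE M21 bounds them (128358604 to 128503363 for Nrp1, 138976014 to 138997370 for Pdgfa). They are thus not sequence upstream of those annotated genes. Windows of 5 of the genes were searched on both strands for 6 motifs: the TATA box TATAAA (found in 13.6% of 32851 mouse windows), the cAMP response element TGACGTCA (1.79%), the GC box GGGCGG (35.7%), the AP-1 site TGANTCA (7.81%), the STAT site TTCNNNGAA (8.3%) and the hypoxia response core ACGTG (19.6%). Capitals mark the matches, none of which overlapped another.
Flt1, chr5:147725962-147726261, minus strand: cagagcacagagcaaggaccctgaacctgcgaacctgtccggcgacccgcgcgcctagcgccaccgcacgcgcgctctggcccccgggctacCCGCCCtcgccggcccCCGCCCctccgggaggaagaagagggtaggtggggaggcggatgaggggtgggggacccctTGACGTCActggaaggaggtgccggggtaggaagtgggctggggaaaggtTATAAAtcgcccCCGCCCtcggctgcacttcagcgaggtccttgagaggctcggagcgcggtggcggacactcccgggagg
Nrp1, chr8:128358823-128359122, plus strand: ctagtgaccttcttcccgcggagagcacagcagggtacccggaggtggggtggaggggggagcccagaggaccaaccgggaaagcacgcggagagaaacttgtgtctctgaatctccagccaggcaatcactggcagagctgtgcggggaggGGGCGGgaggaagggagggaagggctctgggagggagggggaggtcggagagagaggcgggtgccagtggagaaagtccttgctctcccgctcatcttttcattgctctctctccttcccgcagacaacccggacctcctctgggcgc
Pdgfa, chr5:138994895-138995194, minus strand: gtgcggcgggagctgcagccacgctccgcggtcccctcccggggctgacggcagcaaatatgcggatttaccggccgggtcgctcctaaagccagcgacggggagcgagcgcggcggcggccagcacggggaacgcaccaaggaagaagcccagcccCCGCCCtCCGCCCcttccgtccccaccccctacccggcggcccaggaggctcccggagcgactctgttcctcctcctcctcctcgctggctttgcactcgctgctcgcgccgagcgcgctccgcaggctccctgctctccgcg
Flt1 held a TATA box at -31 and a cAMP response element at -81, counted from the start site to the first base of the match, and GC boxes at -158, -142 and -19. Nrp1 held 1 GC box at -98, and the Pdgfa window held GC boxes at -93 and -86. The 7 windows searched also covered Vegfa, Vegfb and a second start of Pdgfa, and Hbegf, Osm, Pdgfb and Thbs1 were not searched. Among the 7, only that of Flt1 had a TATA box or a cAMP response element, a description of letters and not of factor binding. A Vegfa window at an internal start held the hypoxia core, at -211.

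The PDGF ligand genes were estimated higher in CD36-positive cells without passing the test. Pdgfa, whose product acts on PDGF receptor alpha of glia and fibroblasts, was at 31.1, 29.4, 28.7, 31.3 and 29.7 CPM in CD36-positive libraries 1, 2, 3, 4 and 7. It was at 14.9, 17.9, 23.9, 23.1 and 15.6 CPM in CD36-negative libraries 1, 2, 4, 7 and 8. All 5 CD36-positive libraries lay above all CD36-negative ones with little spread among themselves, a coefficient of variation of 3.79%, below the 6.25% that counting error alone gives at the mean count; in CD36-negative libraries it was 21.9%, against 7.09%. The log2 fold change was 0.65 (SE 0.23, 95% interval 0.16 to 1.15, edgeR adjusted p = 0.107). It ran from 0.57 to 0.73 with each library left out and was 0.81 and 0.55 in libraries of high and of low Y-linked level.

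Pdgfb, whose product acts on PDGF receptors alpha and beta, was at 152, 78.9, 102, 89.9 and 68.1 CPM in CD36-positive libraries 1, 2, 3, 4 and 7. In CD36-negative libraries 1, 2, 4, 7 and 8 it was at 33.5, 76.7, 46.6, 64.2 and 54.4 CPM. The groups overlapped only where CD36-positive library 7 lay below CD36-negative library 2. The log2 fold change of 0.83 (SE 0.25, 95% interval 0.30 to 1.37) had an edgeR adjusted p of 0.0568 and missed the threshold. Without CD36-positive library 7 it was 0.94 (edgeR adjusted p = 0.0345) and without CD36-negative library 2 it was 0.98 (adjusted p = 0.0406), while without CD36-positive libraries 1 and 3 it was 0.51 (adjusted p = 0.27). Within the libraries of high and of low Y-linked level it was 0.96 and 0.52. Expected counts of Pdgfb were 2.29 to 4.9 times those of Pdgfa in CD36-positive and 1.95 to 4.28 times in CD36-negative libraries. This ratio, which no library scaling enters, averaged 1.65 ± 0.42 in CD36-positive and 1.5 ± 0.46 in CD36-negative libraries on the log2 scale (SD, n = 5 each, exact two-sided permutation test over 252 splits, p = 0.603). Of the other PDGF genes, Pdgfc did not pass and the receptor genes Pdgfra (16 counts in the CD36-positive and 0 in the CD36-negative group) and Pdgfrb (7 in the CD36-positive and 27 in the CD36-negative group) had too few counts to test, as did Pdgfd. Platelets store PDGF and thrombospondin-1, and platelet markers summed to 81 to 144 CPM in the CD36-positive and 30.5 to 84.5 CPM in the CD36-negative group. That sum was nearly all Pf4, which macrophages also express. Of the 7 other platelet markers, Ppbp (102 counts in the CD36-positive and 49 in the CD36-negative group), Gp1ba (36 and 23, in the same order), and Tubb1 (16 and 10) had more counts in the CD36-positive group. Treml1 (49 and 64), Gp9 (26 and 124), Itga2b (7 and 60) and Gp1bb (0 and 19) had fewer, and Ppbp and Treml1, which had enough counts to test, did not pass. The part of platelets in the Pdgfb and Thbs1 values was not tested.

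Vegfb, a ligand of VEGFR1 and neuropilin-1, was at 31.3, 8.47, 13.8, 10.7 and 12.7 CPM in CD36-positive libraries 1, 2, 3, 4 and 7. It was at 6.43, 12.1, 13.3, 12.3 and 8.19 CPM in CD36-negative libraries 1, 2, 4, 7 and 8. The groups overlapped, with CD36-positive library 3 just above and library 1, the shallowest library, far above all CD36-negative libraries, and the log2 fold change of 0.55 (SE 0.39, 95% interval -0.28 to 1.38, edgeR adjusted p = 0.463) was 0.11 without library 1. Vegfa, the main angiogenic ligand, had 1, 4, 0, 8 and 0 counts in the CD36-positive libraries and 0, 11, 0, 0 and 3 counts in the CD36-negative ones, 27 in all. No difference in Vegfa was detectable at this depth: with no filter on low counts the log2 fold change was 0.17 with an SE of 1.74. Vegfc, for the ligand of lymphatic vessels, had 10 and 61 counts over the CD36-positive and the CD36-negative group, and Pgf, for placental growth factor, 1 and 1; neither was tested.

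Hbegf, the gene of heparin-binding EGF-like growth factor, was also at the edge of detection. It had 0, 0, 0, 4 and 0 counts in CD36-positive libraries 1, 2, 3, 4 and 7 and 1, 0, 2, 0 and 2 counts in CD36-negative libraries 1, 2, 4, 7 and 8. With no filter its log2 fold change was -0.01 with an SE of 1.91, so no difference was detectable. Of 14 genes of EGF family ligands and ErbB receptors, only Tgfa, the gene of transforming growth factor alpha, had enough counts to test, and it did not pass (2.39 ± 2.87 CPM in CD36-positive against 6.98 ± 5.18 in CD36-negative cells, a log2 fold change of -1.52 with an edgeR adjusted p of 0.388). The ligand genes Areg and Ereg had 0 counts in all 10 libraries, which allows up to 0.558 CPM in the shallowest library. Genes for the shedding of these ligands, not all of them for proteases, were well covered, and of 8 such genes 7 were tested. Only 1 passed, Adam8, which fell (8.35 ± 5.45 CPM in CD36-positive against 30.6 ± 4.43 in CD36-negative cells, a log2 fold change of -1.87 with an edgeR adjusted p of 0.00783). Adam17, for the main HB-EGF sheddase, averaged 266 ± 24.0 CPM in the CD36-positive and 211 ± 36.4 CPM in the CD36-negative group (log2 fold change 0.33, edgeR adjusted p = 0.256). The list's median log2 fold change was 0.23.

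Osm was at 12.5, 27.0, 9.46, 17.5 and 24.6 CPM in CD36-positive libraries 1, 2, 3, 4 and 7, and at 12.2, 10.8, 9.92, 13.4 and 14.8 CPM in CD36-negative libraries 1, 2, 4, 7 and 8. Libraries 2, 4 and 7 of the CD36-positive group lay above all CD36-negative ones, library 1 lay among them, and library 3 below all of them. The log2 fold change was 0.58 (SE 0.33, 95% interval -0.12 to 1.28, edgeR adjusted p = 0.338) over all libraries and 0.90 (adjusted p = 0.073) without CD36-positive libraries 1 and 3. Among 9 tested genes of the IL-6 family and its receptors only 1 passed and fell, Il27ra, for the receptor chain of IL-27, which had 0 counts in the CD36-positive group and 162 in the CD36-negative group, at least 43.6-fold lower if the CD36-positive group as a whole is set at 3 counts. The receptor genes Il6ra (118 ± 50 CPM in CD36-positive against 148 ± 43.7 in CD36-negative cells, a log2 fold change of -0.33) and Lifr (124 ± 24.1 CPM in CD36-positive against 113 ± 17.0 in CD36-negative cells, 0.13) did not pass, and Osmr, for the oncostatin M receptor itself, had 44 counts in the CD36-positive and 43 in the CD36-negative group and was not tested. The list's median log2 fold change was -0.19.

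Thbs1 was at 47.5, 37.9, 38.4, 20.8 and 39.1 CPM in CD36-positive libraries 1, 2, 3, 4 and 7, and at 12.5, 9.87, 19.7, 42.5 and 19.8 CPM in CD36-negative libraries 1, 2, 4, 7 and 8. The groups overlapped through a single library: CD36-negative library 7 lay above 4 of the 5 CD36-positive libraries, and the other 4 CD36-negative libraries lay below all of them. Over all libraries the log2 fold change was 0.81 (SE 0.35, 95% interval 0.07 to 1.55, edgeR adjusted p = 0.184), and without CD36-negative library 7 it was 1.24 (adjusted p = 0.0288). It was 1.83 in the libraries of high Y-linked level (adjusted p = 0.0462) and 0.14 in those of low Y-linked level (adjusted p = 0.923), the set that holds CD36-negative library 7. The difference between the sets was not tested.

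Of the 11 tested genes of thrombospondins and their receptors 3 rose and 1 fell, with a median log2 fold change of 0.21. Beside Cd36, which the sort selected, the integrin genes Itga6 (493 ± 140 CPM in CD36-positive against 219 ± 59.5 in CD36-negative cells, a log2 fold change of 1.17 with an edgeR adjusted p of 0.00265) and Itgav (169 ± 25 CPM in CD36-positive against 96.1 ± 13.1 in CD36-negative cells, 0.81, adjusted p = 0.00698) were higher in CD36-positive cells. Cd47, the gene of the other main thrombospondin-1 receptor and a signal against phagocytosis, was lower, at 259 ± 74.9 CPM in CD36-positive against 522 ± 76.9 in CD36-negative cells (a log2 fold change of -1.01, edgeR adjusted p = 0.0048). Each of the 3 receptor genes Itga6, Itgav and Cd47 had groups that did not overlap and passed in all 10 fits that left out 1 library. Over all 22 alternative fits Itga6 kept its call, Cd47 lost it in 1 and Itgav in 2. Itgb1 (263 ± 81.1 CPM in CD36-positive against 328 ± 78.6 in CD36-negative cells) and Calr (800 ± 83.7 CPM in CD36-positive against 632 ± 61.2 in CD36-negative cells) did not pass.

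Nrp1 encodes a co-receptor for VEGF-A and for class 3 semaphorins and had the highest level per length of the 9 genes. It was at 362, 340, 296, 294 and 331 CPM in CD36-positive libraries 1, 2, 3, 4 and 7, and at 255, 205, 280, 229 and 233 CPM in CD36-negative libraries 1, 2, 4, 7 and 8. All CD36-positive libraries lay above all CD36-negative ones. With Pdgfa this made 2 of 7 tested genes with separate groups in this direction, against 2.59% of all genes tested. For genes chosen with earlier results of these data known, that share is not independent evidence. The log2 fold change of Nrp1, 0.43 (SE 0.15, 95% interval 0.11 to 0.76), did not pass in edgeR (adjusted p = 0.107) and passed in the DESeq2 Wald test (adjusted p = 0.0437). It ran from 0.38 to 0.47 with each library left out, and was 0.49 and 0.34 in libraries of high and of low Y-linked level.

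Of 6 tested genes of class 3 semaphorins and plexins, the partners of neuropilins, only 1 passed and fell, with a median log2 fold change of -0.76. This was Plxnd1, for the plexin that vessels use to read semaphorin 3E, which averaged 12.2 ± 2.98 CPM in the CD36-positive and 43 ± 9.29 CPM in the CD36-negative group (log2 fold change -1.82, edgeR adjusted p = 0.00023). Plxna1 (11.9 ± 5.07 CPM in CD36-positive against 15.1 ± 8.31 in CD36-negative cells) and Plxna4 (9.59 ± 5.49 CPM in CD36-positive against 9.57 ± 6.89 in CD36-negative cells) did not pass.

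**Figure D3:**
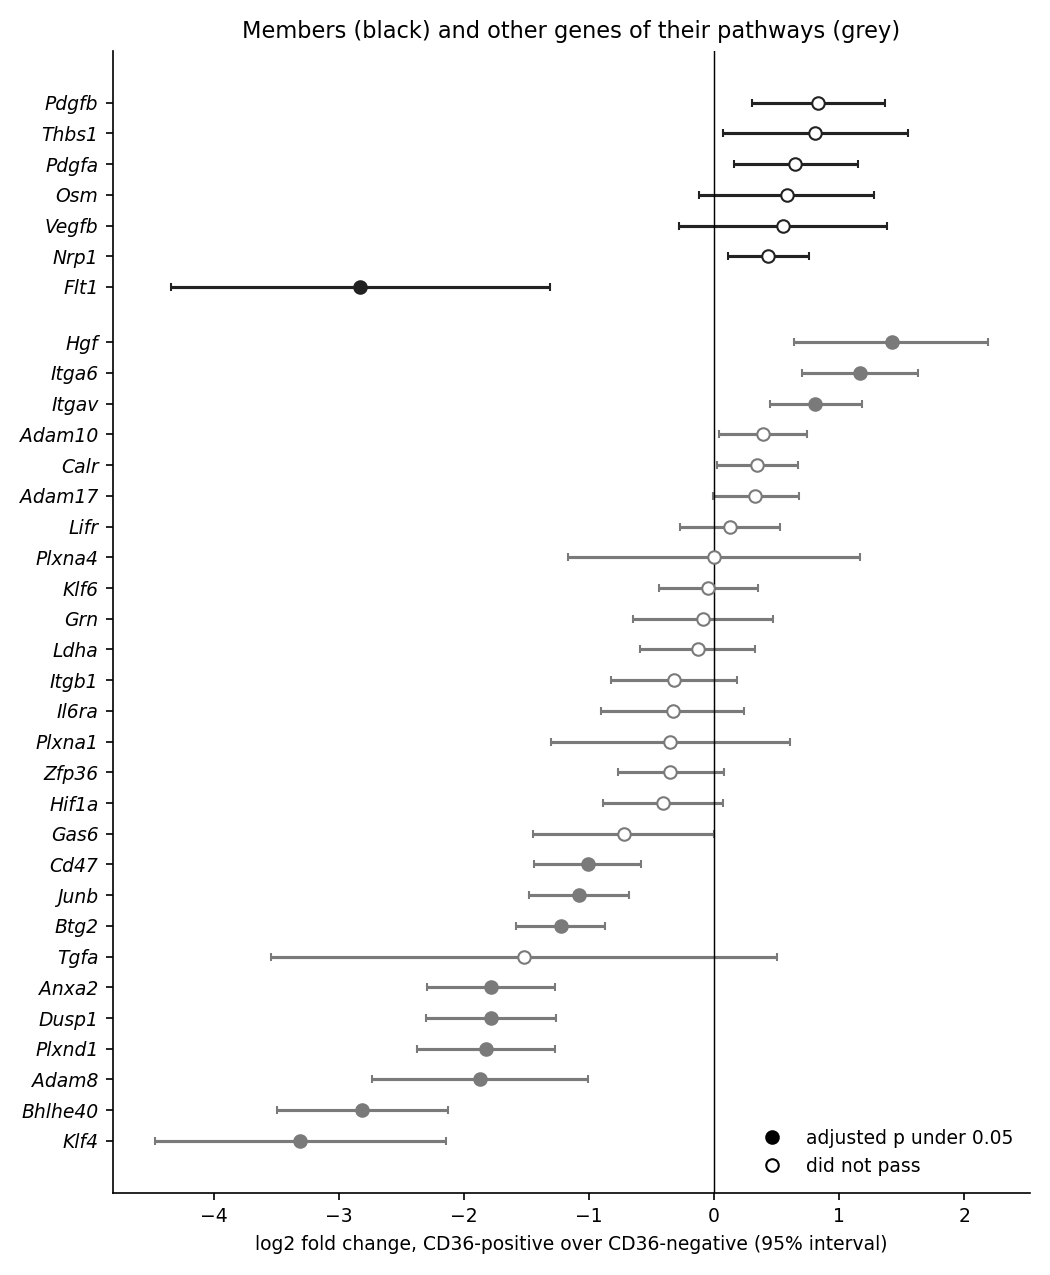
Log2 fold change of CD36-positive over CD36-negative cells (horizontal axis) with its 95% interval for the 7 tested genes (black, upper block) and for named genes of their pathways (grey, lower block; Cd36 and Il27ra not drawn), filled where the edgeR adjusted p is under 0.05. Flt1 is the single filled point of the upper block, at -2.83.

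Per kilobase of exon, which allows levels of different genes to be set side by side, the order was the same in both groups. Nrp1 led with 90.2 ± 8.12 CPM per kilobase in CD36-positive and 66.9 ± 7.91 in CD36-negative libraries, followed by Pdgfb with 33.4 ± 11.1 in CD36-positive and 18.7 ± 5.61 in CD36-negative libraries (SD, n = 5 each). Vegfb, Pdgfa, Osm and Thbs1 came next, at group means of 12, 10.2, 8.01 and 6.28 CPM per kilobase in CD36-positive and 8.17, 6.49, 5.37 and 3.57 in CD36-negative libraries; neighbours in this run had overlapping ranges in both groups. Flt1 followed at 0.111 ± 0.0973 in CD36-positive and 0.805 ± 0.392 in CD36-negative libraries. Vegfa and Hbegf came last, at 0.0873 and 0.0379 in CD36-positive and 0.0771 and 0.0385 in CD36-negative libraries. The ranges of Flt1 and Vegfa overlapped in CD36-positive libraries, at 0.0103 to 0.257 and 0 to 0.256, and did not in CD36-negative ones, at 0.438 to 1.39 and 0 to 0.314. With the longest transcript in place of all exons, Pdgfa came before Vegfb.

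**Figure D4:**
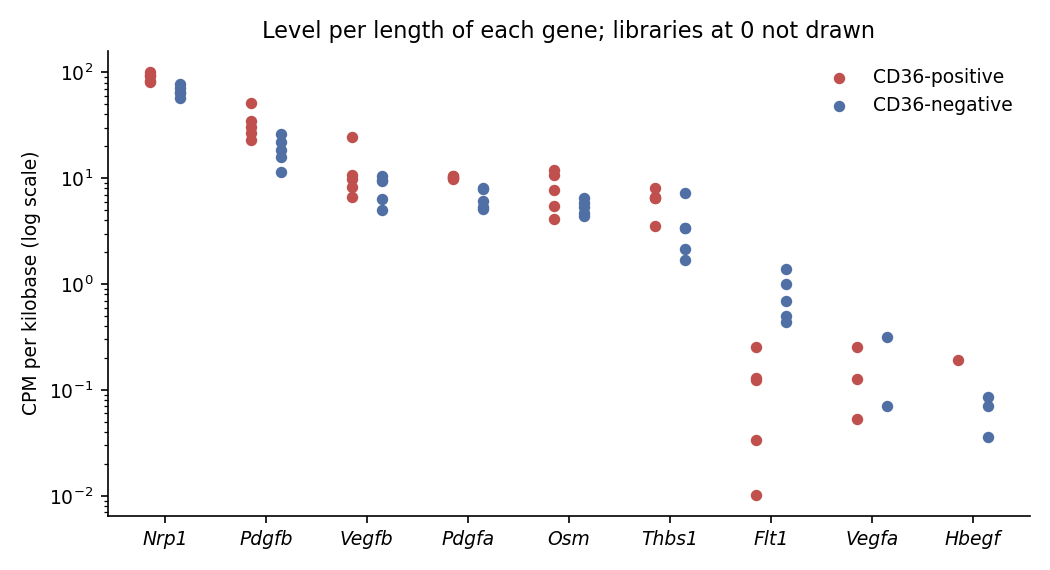
Level per length of each gene (vertical axis, CPM per kilobase of exon, log scale) in CD36-positive and CD36-negative libraries, 1 point per library, libraries at 0 not drawn. Every point of Nrp1 lies above those of the other genes, and Flt1 has its CD36-positive points below its CD36-negative ones.

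Genes that often accompany angiogenic signalling were examined beside these. Of 9 tested genes among other angiogenic and tissue growth factors, 1 rose and 1 fell (median log2 fold change -0.09). Hgf, for hepatocyte growth factor, rose (24.4 ± 13.5 CPM in CD36-positive against 9.13 ± 2.76 in CD36-negative cells, a log2 fold change of 1.42 with an edgeR adjusted p of 0.0252), and passed in 6 of 10 fits that left out 1 library. With the replicate number as a block it did not pass, at 1.48 (adjusted p = 0.0607) for the number of the descriptions and 1.31 (adjusted p = 0.0574) for that of the titles. Anxa2, for annexin A2, which assembles plasmin on cell surfaces, fell (96.3 ± 30.8 CPM in CD36-positive against 331 ± 76.8 in CD36-negative cells, -1.78, adjusted p = 0.000134). Grn, for progranulin, was abundant and did not pass, at 2420 ± 823 CPM in CD36-positive against 2570 ± 892 in CD36-negative cells (log2 fold change -0.09), nor did Gas6, for a ligand of phagocytic receptors (78.8 ± 31.8 CPM in CD36-positive against 130 ± 66.5 in CD36-negative cells, -0.72).

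Of 23 tested hypoxia response genes only 1 passed and fell, with a median log2 fold change of -0.13. This was Bhlhe40, a transcription factor gene that other stimuli also induce (33.4 ± 15.1 CPM in CD36-positive against 235 ± 87 in CD36-negative cells, a log2 fold change of -2.81 with an edgeR adjusted p of 2.55e-05). Hif1a (147 ± 46.5 CPM in CD36-positive against 195 ± 43.5 in CD36-negative cells, -0.41) and Ldha (602 ± 160 CPM in CD36-positive against 660 ± 151 in CD36-negative cells, -0.13) did not pass. Ndrg1 (-2.75, edgeR adjusted p = 0.0505) and Ddit4 (-1.95, adjusted p = 0.0555) just missed the threshold, and 0 genes of this list were called higher. Immediate early genes, which growth factors and tissue dissociation induce, fell in 9 of 20 tested genes while the other 11 did not pass, with a median log2 fold change of -0.69; genes of this kind were known to be lower in these samples when the list was drawn up, so the count is not independent evidence. Klf4 (4.71 ± 4.37 CPM in CD36-positive against 45.6 ± 24.3 in CD36-negative cells, -3.31), Dusp1 (-1.78), Btg2 (-1.22) and Junb (-1.08) had the smallest p, whereas Klf6 (-0.05) and Zfp36 (-0.35) did not pass. Adam8, Il27ra, Cd47, Itga6, Itgav, Plxnd1, Hgf, Anxa2, Bhlhe40 and the immediate early genes were all compared in the same libraries. Most tested markers of dendritic cells, monocytes, neutrophils, and T and NK cells were lower there in CD36-positive cells. The part of those cell types was not tested.

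**Figure D5:**
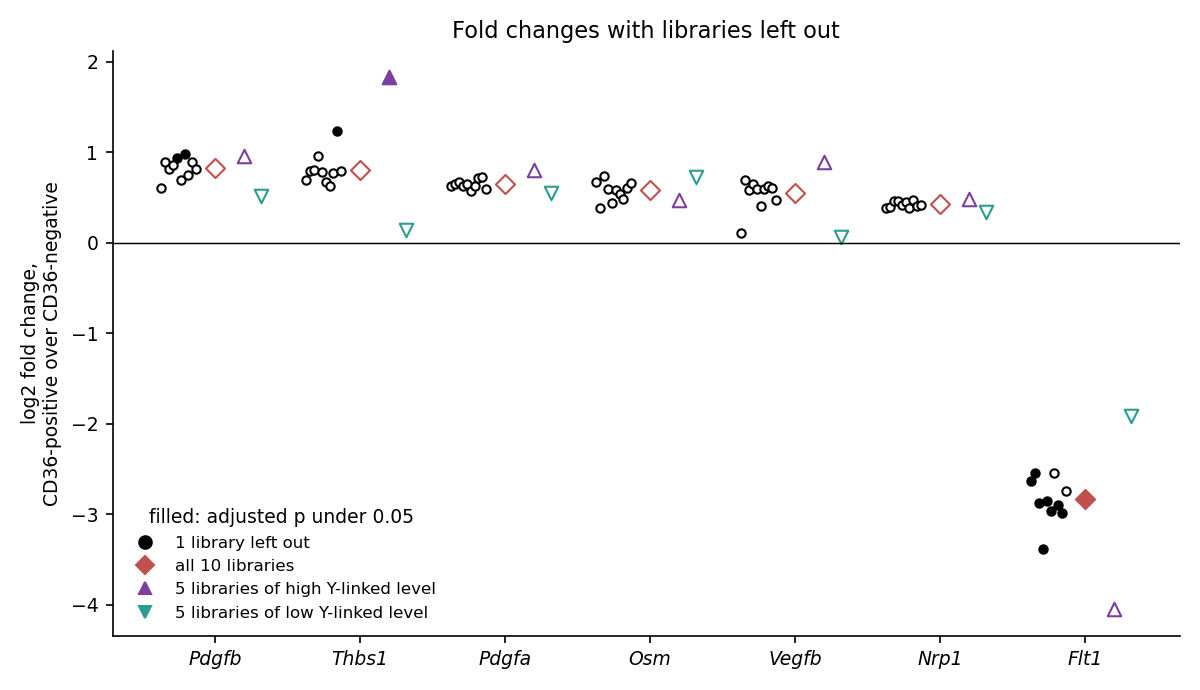
Log2 fold change of each tested gene (vertical axis) with each library left out in turn (circles), with all 10 libraries (diamonds) and within the 5 libraries of high and the 5 of low Y-linked level (triangles), filled where the edgeR adjusted p is under 0.05. No estimate crosses 0; Thbs1 ranges from 0.14 to 1.83 and Flt1 from -4.05 to -1.91.

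Across libraries, with each group's mean taken away, the genes most like each member were found among 9262 or 9263 candidates, over 10 libraries. All genes of a library share its depth and quality, which differed between libraries. Vegfb was closest to Usf2 (Pearson r = 0.97), Pdgfa to Dnajc25 (0.94), Pdgfb to Strn3 (0.91) and Thbs1 to Ppm1f (0.88). Nrp1 was closest to Accs (0.92), Osm to Rtcb (0.95) and Flt1 to Zfp60 (0.95), given as a description with no test. Each value is the highest among all candidates, and how high that would be by chance was not tested. For Flt1 the values include CD36-positive libraries 1 and 2, with 2 and 1 counts. Among the members themselves Vegfb and Pdgfb had the highest value (r = 0.76), both being highest in CD36-positive library 1, and Nrp1 and Flt1 the lowest (r = -0.62).

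On GRCm38, in the GENCODE M21 annotation, all 9 genes are protein coding. Flt1 lies on the minus strand of chromosome 5 from 147561604 to 147726011, Pdgfa on the minus strand of chromosome 5 from 138976014 to 138997370, and Nrp1 on the plus strand of chromosome 8 from 128358604 to 128503363. Pdgfb lies on chromosome 15 from 79995874 to 80014977, Thbs1 on chromosome 2 from 118111876 to 118127133, and Osm on chromosome 11 from 4236420 to 4241026. Vegfa lies on chromosome 17 from 46016993 to 46032369, Vegfb on chromosome 19 from 6982473 to 6987651, and Hbegf on chromosome 18 from 36504927 to 36515805.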

How the data were processed

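RNA of 10 sorted samples was sequenced. The deposited table held expected counts (estimated counts that need not be whole; 91.9% were whole) per gene symbol, not normalized, per the file headers and values. Per the submitters' processing notes, HISAT2 2.1.0, StringTie 1.3.1, Bowtie2 2.2.8 and fastp 0.18.0 were used with mm10. Neither the counting program nor the use of strand is given in the sources used here, so reads of a gene and an antisense partner cannot be told apart. Of 22008 lines, 8 damaged and 131 repeated ones were dropped; 0 of the 9 genes lay on a block edge of the damage. Counts were rounded and low genes removed (filterByExpr, minimum count 10). After TMM scaling, edgeR 4.0.16 in R 4.3.3 fitted a quasi-likelihood model with group as the only term (glmQLFit, glmQLFTest), with Benjamini-Hochberg adjustment over 11596 genes, threshold 0.05. The 95% intervals come from this fit, and floors of 3 counts cover counting error only. The members, gene lists and comparisons were chosen with earlier results of these data known. Named genes are the 9 members, Cd36 and, per pathway list, up to 4 called genes with the smallest p and up to 2 uncalled ones with the highest CPM; Kdr, Pecam1, Pgf, Vegfc, Pdgfc, Pdgfd, Osmr, Areg, Ereg, Pdgfra, Pdgfrb, Pf4, Tgfb1 and the other endothelial and platelet genes were added after their values were seen. Ndrg1 and Ddit4 were also added after their values were seen. Level per length divides CPM by all exon bases of the GENCODE basic set. On 3 simulated tables (11384 genes tested, 200 changed) the fit called 38.6% of the 2-fold changes and 84.3% of the 4-fold changes, and 3.25% of calls were false. The simulated counts were drawn independently for each gene and library, with the spread that the fit itself had estimated. They held no libraries that stand apart, no pairing and no difference in cell types, so these rates may not hold for the real data. All replicate pairs differed by more than sampling noise, with a chi-square of 23.3 to 116 for each degree of freedom. Alternatives included the DESeq2 1.42.0 Wald test and limma 3.58.1 voom. Date-like symbols (27) carry no result.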

Additional observations from a re-analysis of the deposited data

Results flagged for a closer look

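Among the 18 sets of 5 libraries examined (9 genes in each group), 3 held a library far from its group. Chance gives about 1 in 20 for normally distributed values. That rate does not apply to the Vegfa and Hbegf sets, whose counts lie at or near the floor. Whether the CPM of the other sets is normally distributed was not tested. Vegfb in CD36-positive library 1 was at 31.3 CPM, with the next highest library of that group at 13.8 CPM. Vegfa in CD36-negative library 2 was at 1.11 CPM (11 counts), with the next at 0.251 CPM, and Hbegf in CD36-positive library 4 was at 0.45 CPM (4 counts), with the others of that group at 0.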

How the results depend on the processing

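The direction of all 7 tested genes held under every alternative run. Flt1 was the gene counted as lower as reported; the count of genes lower was 0 with the filter of 10 CPM in 5 libraries (where Flt1 was not tested), with the description number as replicate block (Flt1 at -3.08, adjusted p = 0.0971), without CD36-positive replicates 1 and 3 together, at an adjusted p of 0.01, and in the libraries of high or of low Y-linked level, the last 2 added after seeing the data; these use fewer samples. The count of genes higher, 0 as reported, was 1 with no filter (Pdgfb), with detected genes as a covariate (Pdgfb) and in the libraries of high Y-linked level (Thbs1), and 2 with the DESeq2 Wald test. With each library left out it ran from 0 to 1, and the count lower from 0 to 1: Flt1 was not called without CD36-negative replicate 2 or 8, Pdgfb was called higher without CD36-positive replicate 7 or CD36-negative replicate 2, and Thbs1 without CD36-negative replicate 7. Of 87 tested genes of the pathway lists outside the members, 4 were called higher and 15 lower. Over all genes tested the shares were 2.61% higher and 4.74% lower. The 4 include Cd36, which the sort selected, and the 15 include 9 immediate early genes, of a kind known to be lower beforehand. These counts are therefore not independent evidence. In the libraries of high Y-linked level 8 of the pathway genes were called lower. Whether replicate numbers pair the samples is not settled: the labels do not say so, and same-numbered samples correlated at 0.03 to 0.13 by the description label and at -0.02 to 0.13 by the title, not above 0.1 in every pair. CD36-positive library 2 correlated best with the CD36-negative library of its own description number, and library 1 did not. CD36-positive library 4 correlated at 0.1 with its own number and at 0.11 with CD36-negative library 8. CD36-positive library 7 correlated at 0.1 with both its own number and CD36-negative library 8. As a hint from the data, all 4 shared description numbers were alike in being high or low in Y-linked level. With the title number as replicate block Flt1 remained called (-3.09, adjusted p = 0.0432). Over all genes, 303 were called higher and 550 lower. These counts were 184 and 466 with the description block, 188 and 570 without CD36-positive replicates 1 and 3, 533 and 743 with DESeq2, 90 and 330 at an adjusted p of 0.01, 33 and 215 in libraries of high and 137 and 467 in libraries of low Y-linked level, and 132 to 380 and 422 to 583 with each library left out. The cause of these changes was not tested. Depth limits Vegfa and Hbegf, whose counts lie at the floor.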

Other observations

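Markers of cells that make or receive these factors in the retina were compared by their summed CPM, as values with no explanation. Pericyte and smooth muscle markers, of cells that carry the PDGF-B receptor, had low sums in both groups, with 3.73 to 8.75 CPM in the CD36-positive and 2.66 to 8.69 CPM in the CD36-negative group. Of these 10 markers, 2 had enough counts to test and did not pass. Retinal pigment epithelium markers, of a main source of VEGF-A in the eye, summed to 4.39 to 12.3 CPM in the CD36-positive and 2.19 to 32.8 CPM in the CD36-negative group. Müller glia and astrocyte markers, led by genes that other cells also express, summed to 10100 to 30800 CPM in the CD36-positive and 16400 to 22300 CPM in the CD36-negative group. Apoe made the largest part, averaging 22300 CPM in the CD36-positive and 18000 CPM in the CD36-negative group. Of the 8 tested markers of this list, Kcnj10 was called higher, Clu and Vim were called lower, and 5 did not pass. Among platelet markers, Pf4, the gene of platelet factor 4, an inhibitor of angiogenesis that macrophages also express, was higher in CD36-positive cells (107 ± 26.3 CPM in CD36-positive against 43.7 ± 20.9 in CD36-negative cells, a log2 fold change of 1.29 with an edgeR adjusted p of 0.0108), with overlapping groups, and was picked with its values known. Photoreceptor markers were detected at 109 to 913 CPM in the CD36-positive and 384 to 2330 CPM in the CD36-negative group, while Vegfa stayed at or below 1.11 CPM in all 10. Tgfb1, for transforming growth factor beta 1, averaged 2.08 CPM in the CD36-positive and 3.42 CPM in the CD36-negative group and did not pass (log2 fold change -0.71, edgeR adjusted p = 0.607).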
